A study of Mus musculus with 2 samples.

Results

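The chemokine genes Ccl2, Ccl20, Cxcl1, Cxcl2, Cxcl5, Cxcl9, Cxcl10, Cxcl12, Cxcl16 and Cx3cl1, were followed across the cell classes of mouse liver in 2 droplet single-cell RNA libraries. These 10 genes were listed by symbol, in a list drawn up with earlier results of these data known, and all 10 were found among the 32285 genes of each library. For each of them the class with the highest level was sought among hepatocytes, EGFP-positive or Plet1-positive epithelial cells, Kupffer cells, other myeloid cells, endothelial cells and stellate cells. The series concerns changes of cell identity in regenerating liver and in liver tumours. One library, called DDC here, mixes WT mice on normal diet (day 0) and Sox9-EGFP mice fed DDC, a diet that injures the bile ducts, for 2 weeks. Its counterpart, DDC and cMet, mixes WT day 0 mice and Sox9-CreERT2:Rosa26-mTmG mice that had 5 months of DDC together with cMet, given through HTVi as the label abbreviates it. All mice were of the strain C57BL/6J;129S6/SvEvTac, and each time had 2 mice.

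Mice and times share a library and the deposited barcodes do not separate them. Each library is therefore 1 sample, injured and uninjured cells are mixed in it, and a difference between libraries cannot be told apart from one between conditions. With 1 library per condition there is no test, and the intervals given are 95% exact Poisson intervals that cover counting error only. EGFP in a Sox9-EGFP mouse marks cells that use Sox9 regulatory sequence, which bile duct cells do as well. EGFP is a feature of the DDC library only, and EGFP-positive cells are therefore described there alone. The WT day 0 mice carry no EGFP, so the other classes can hold day 0 cells where the EGFP-positive class should not.

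Chemokines are small secreted or shed proteins that draw white blood cells along a gradient through receptors on the cell surface. In the liver, Ccl2 draws monocytes through Ccr2, and Cxcl1, Cxcl2 and Cxcl5 draw neutrophils through Cxcr2. Cxcl9 and Cxcl10 are interferon-induced ligands of Cxcr3 on T cells, and Ccl20 is the ligand of Ccr6. Cxcl12 holds Cxcr4-bearing cells in place, and Cxcl16 and Cx3cl1 are made as membrane-bound proteins that are shed by proteases and bind Cxcr6 and Cx3cr1. The damaged epithelium, resident Kupffer cells, endothelium and stellate cells are all known to make members of the family.

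The 10 genes are protein-coding, and their positions follow the GENCODE annotation of GRCm38 (mm10). Cxcl5 (chr5:90759360-90761624), Cxcl1 (chr5:90891241-90893115) and Cxcl2 (chr5:90903871-90905938) lie near each other on the plus strand of chromosome 5. Cxcl9 (chr5:92321347-92328079) and Cxcl10 (chr5:92346638-92348889) lie near each other on the minus strand of the same chromosome. The others are Ccl2 (chr11:82035571-82037453), Cxcl16 (chr11:70453983-70459984), Ccl20 (chr1:83116766-83119167), Cxcl12 (chr6:117168535-117181367) and Cx3cl1 (chr8:94772009-94782427).

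The stretches before the starts of the neighbouring genes Cxcl1 and Cxcl2 and of the neighbours Cxcl9 and Cxcl10 are shown because the first pair had different main sources and the second pair shared one in a library. RefSeq promoters of build GRCm38.p6 were in the table used for 7 of the 10 genes; those of Ccl2, Cxcl5 and Cxcl16 are not shown. Each stretch runs from 220 to 31 bases before the start in the RefSeq table, 5′ to 3′ on the gene's own strand: chr5:90891025-90891214 (plus) for Cxcl1, chr5:90903679-90903868 (plus) for Cxcl2, chr5:92328110-92328299 (minus) for Cxcl9 and chr5:92348920-92349109 (minus) for Cxcl10. The table's starts of Cxcl1 (90891245) and Cxcl2 (90903899) lie inside the GENCODE genes given above, so the Cxcl2 stretch ends just before the GENCODE start. Capitals mark matches on either strand to GGAATTTCC, an NF-kappaB type motif, or GAAANNGAA, a short interferon-response type motif; no match of one overlapped a match of the other.
Cxcl1: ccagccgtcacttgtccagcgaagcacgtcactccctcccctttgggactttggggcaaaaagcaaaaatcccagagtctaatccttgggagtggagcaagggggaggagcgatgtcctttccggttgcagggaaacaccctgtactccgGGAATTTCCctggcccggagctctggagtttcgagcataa
Cxcl2: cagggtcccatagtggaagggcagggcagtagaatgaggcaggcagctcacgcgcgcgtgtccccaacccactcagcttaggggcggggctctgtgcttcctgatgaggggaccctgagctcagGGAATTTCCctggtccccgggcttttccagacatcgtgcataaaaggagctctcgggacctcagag
Cxcl9: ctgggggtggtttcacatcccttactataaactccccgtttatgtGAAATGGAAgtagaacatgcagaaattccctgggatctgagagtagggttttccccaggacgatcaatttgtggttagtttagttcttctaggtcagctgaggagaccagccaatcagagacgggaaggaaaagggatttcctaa
Cxcl10: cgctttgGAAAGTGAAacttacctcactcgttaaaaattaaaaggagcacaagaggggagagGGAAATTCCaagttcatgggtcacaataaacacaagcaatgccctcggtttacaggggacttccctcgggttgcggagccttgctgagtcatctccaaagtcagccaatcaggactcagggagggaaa
The first motif lay 62 to 70 bases before the start in Cxcl1, 88 to 96 in Cxcl2 and, on the other strand, 150 to 158 in Cxcl10. It was in 3 of the 7 windows of 300 bases and in 0.317% of all 32851 promoters of the table. The second motif lay 167 to 175 bases before the start in Cxcl9 and 205 to 213 in Cxcl10, and 8.56% of all promoters held it. A match describes the letters and is neither a site nor a cause.

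The libraries held 8694 and 18316 barcodes with 104523363 and 186997180 unique molecular identifiers (UMIs), which count captured RNA molecules. Of these, 3613 (41.6%) and 12593 (68.8%) barcodes were kept for having 500 genes and 1000 UMIs or more with no more than 30% of UMIs from mitochondria, with medians of 20397 and 3529 UMIs. They shared 8 kept barcodes. In the order DDC library, then DDC and cMet library, marker gates held 1414 and 8885 hepatocytes, 793 and 656 Plet1-positive epithelial cells, 269 and 989 Kupffer cells, 69 and 170 other myeloid cells, 61 and 282 endothelial cells and 4 and 25 stellate cells. The DDC library also held 663 EGFP-positive epithelial cells. Cells with markers of several families (271 and 1347) were left out. All hepatocyte, Kupffer, pan-myeloid, endothelial and stellate markers were detected in their own class, which is no check on gates that use these markers. Those of the non-parenchymal classes were also all detected in hepatocytes, at low levels. Kupffer markers of the DDC library summed to 1.30 per 10000 there, against 174 in Kupffer cells. EGFP-positive and Plet1-positive cells were much deeper, with medians from 34872 to 50058 UMIs, than the other hepatocytes, with 2358 and 2476. The marker stood at the gate's minimum of 2 UMIs in 137 EGFP-positive and in 132 and 172 Plet1-positive cells. The EGFP-positive cells kept a high median of hepatocyte markers (851 per 10000 UMIs against 963 in the other hepatocytes). Over the summed UMIs of each class these markers stood at 832 against 1136. Bile duct markers stood at 98.4 against 7.71 over summed UMIs, with medians of 51.7 against 10.7. The EGFP gate can thus hold bile duct cells.

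Epithelial cells led for Ccl2, myeloid cells for Cxcl2 and Cxcl16 and stellate cells for Cxcl12 in both libraries. The main source of a gene is the class with the highest UMIs per 10000 among classes with at least 10 of its UMIs. It is called clear where its interval lies above those of all other such classes, or where no other class reaches 10. Smaller classes are not compared. Cxcl5 in the DDC and cMet library is clear only because Plet1-positive cells, with 11 UMIs, alone reached the minimum. DDC Cxcl10 is clear from 1.11 per 10000, although the stellate interval, from 5 UMIs, reached 1.42. Within the DDC library the highest level was in EGFP-positive cells for Ccl2, Ccl20, Cxcl1 and Cx3cl1, in Kupffer cells for Cxcl2 and Cxcl16, in other myeloid cells for Cxcl5 and Cxcl10, and in stellate cells for Cxcl9 and Cxcl12. In the other library, DDC and cMet, it was in Plet1-positive cells for Ccl2, Ccl20 and Cxcl5, in other myeloid cells for Cxcl2, in Kupffer cells for Cxcl16, in endothelial cells for Cxcl9 and Cxcl10, and in stellate cells for Cxcl1, Cxcl12 and Cx3cl1. The source was clear for 6 of 10 chemokines in the DDC library, where 36.8% of all 14440 genes with enough UMIs had a clear one, and for 8 of 10 in the other, where 48.6% of 15654 did. The same class led in both libraries for 2 of the 10, Cxcl12 and Cxcl16, against 48.8% of 14203 genes. A gene led by EGFP-positive cells cannot count there, since that class exists in 1 library only.

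**Figure D1:**
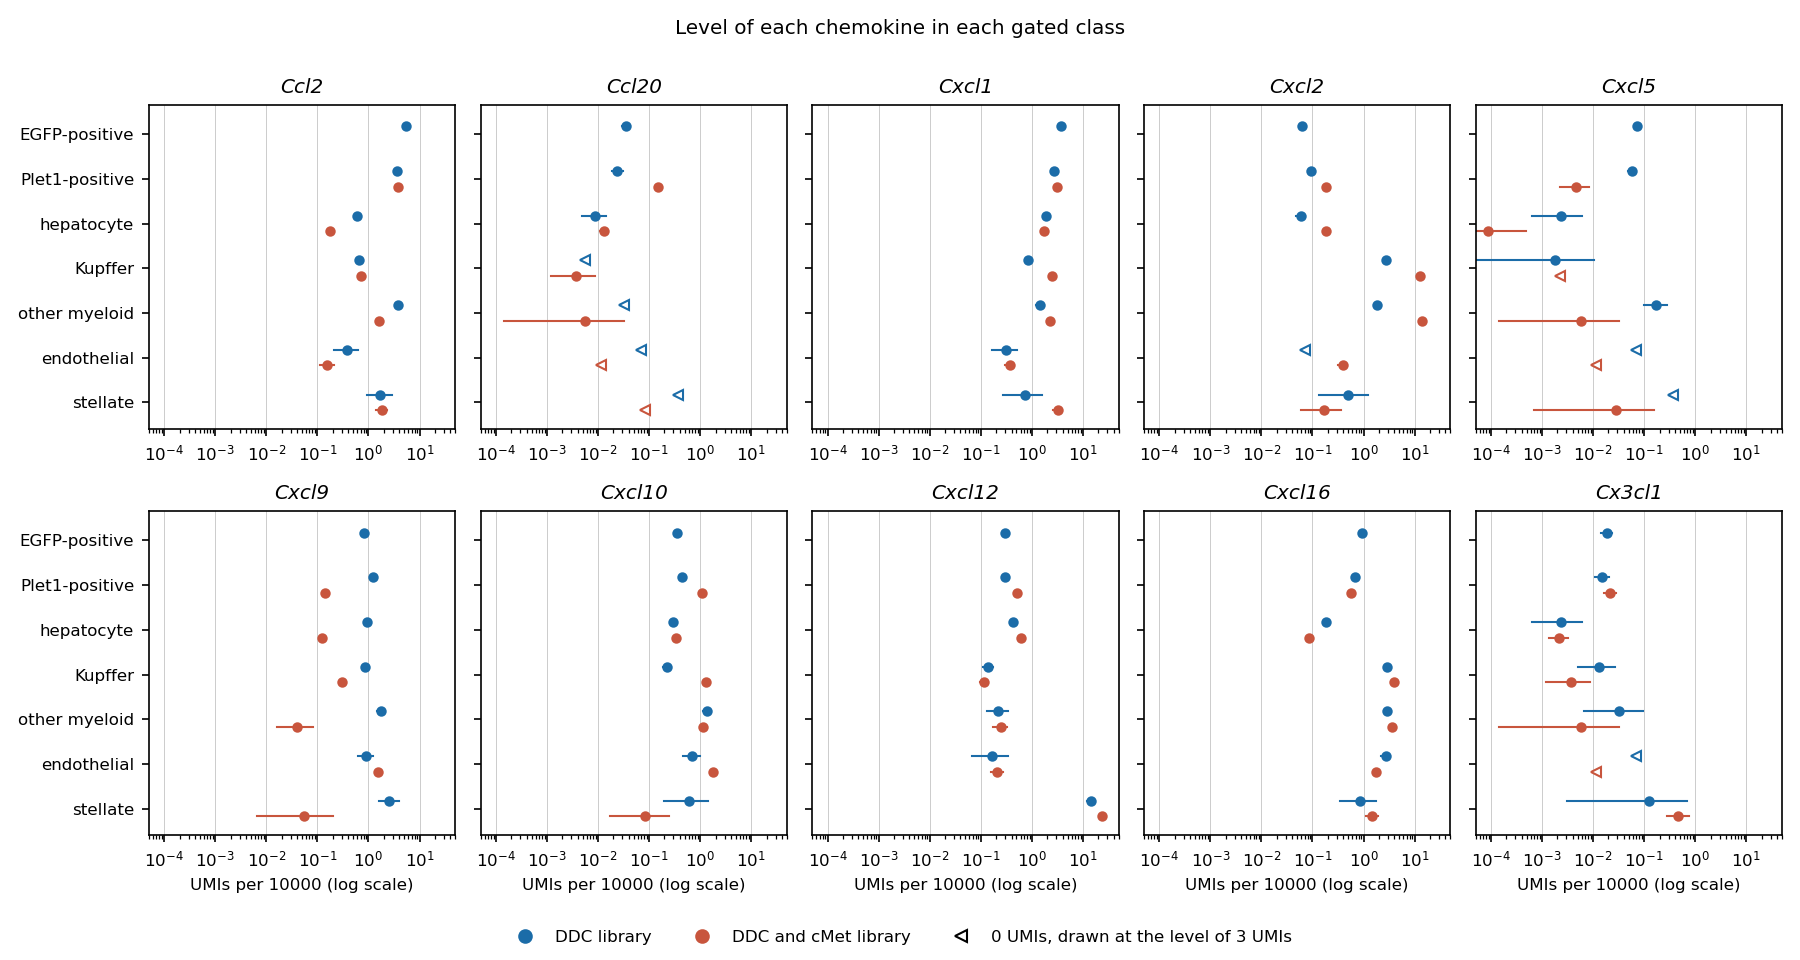
UMIs per 10000 of each chemokine (x axis, log scale) in each gated class (y axis) of the DDC library (blue) and the DDC and cMet library (red); lines are 95% Poisson intervals, and open triangles mark classes with 0 UMIs, drawn at the level of 3 UMIs. Ccl2 stands highest in EGFP-positive cells of the former and Plet1-positive cells of the latter, Cxcl2 in Kupffer and other myeloid cells and Cxcl12 in stellate cells of both libraries.

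Single cells decided several of these names. Without the cell with the most UMIs of the gene in each class, a check added after seeing the data, the DDC source of Cxcl10 and of Cxcl9 became Plet1-positive cells and that of Cxcl5 EGFP-positive cells. In the DDC and cMet library, Cxcl1 was then led by Plet1-positive cells, and Cxcl5 had no class left with 10 UMIs. Over the 10 alternatives that bear on sources, the named class came out in all 10 for Ccl2 and Cxcl12 in both libraries, for Cxcl1 and Cxcl2 in the DDC library, and for Ccl20 and Cxcl10 in the other. It came out in 5 of 10 for Cxcl1 in the DDC and cMet library and in 6 of 10 for Cxcl5 and Cxcl9 in the DDC library. The endothelial lead of Cxcl9 in the DDC and cMet library was lost to other myeloid cells when cells with mixed markers were assigned to the class with most markers, and the stellate lead of Cx3cl1 was lost at a minimum of 30 UMIs.

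A high level in a class is not the same as most of the RNA, because classes differ in size and depth. Stellate cells had the highest Cxcl12 level in the DDC and cMet library yet held 6.06% of its UMIs, while hepatocytes held 51.4%. Other myeloid cells led Cxcl5 in the DDC library with 3.52% of its UMIs, and EGFP-positive cells held 55.1%. Epithelial cells of all kinds together held 91.8% of Ccl2 and 94.2% of Cxcl1 UMIs in the DDC library, but 18.6% of Cxcl2. In the other library they held 80.4%, 81.8% and 8.78%.

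**Figure D2:**
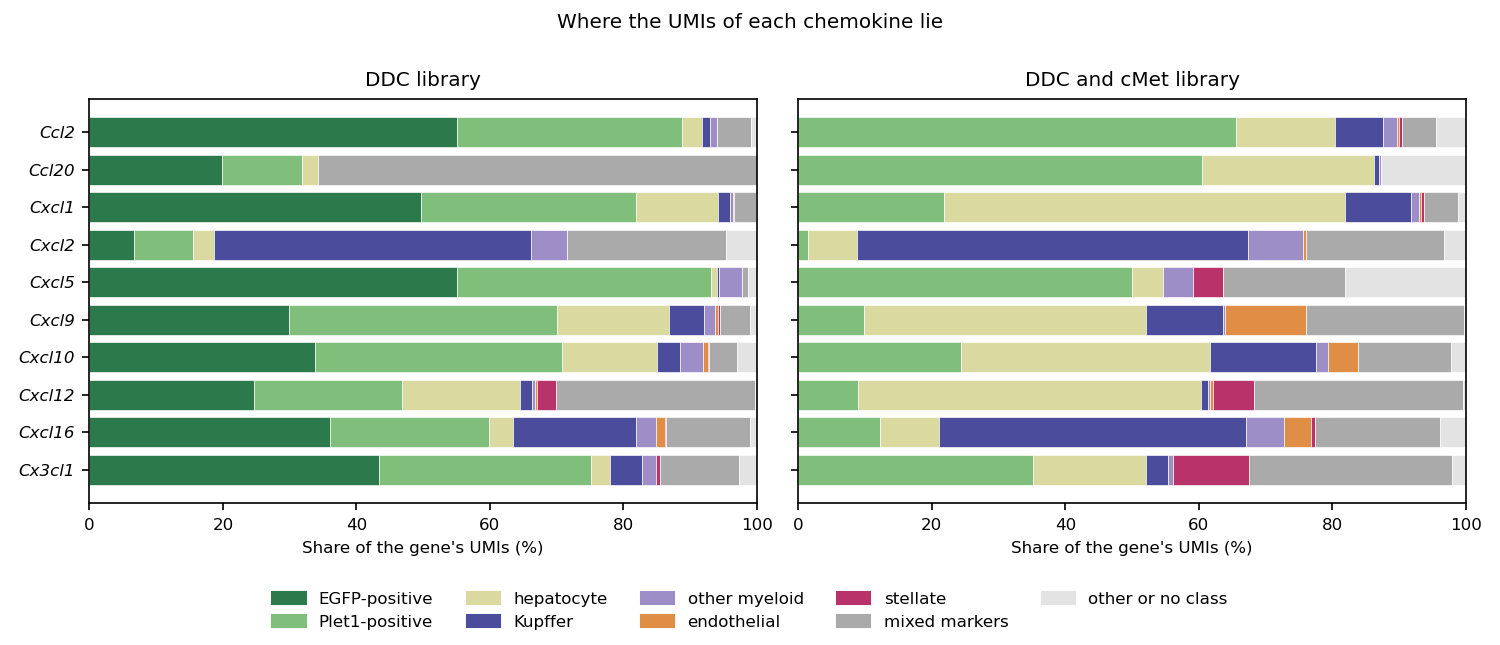
Share of each chemokine's UMIs (x axis, percent of the kept cells' UMIs of that gene) by class in the DDC library (left) and the DDC and cMet library (right). Green and yellow bars are epithelial classes; they hold most Ccl2 and Cxcl1 UMIs, while Kupffer cells (dark blue) hold 47.5% and 58.5% of Cxcl2, and 65.7% of DDC Ccl20 lies in cells with mixed markers.

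Ccl2, the main monocyte attractant, was an epithelial transcript in both libraries. In the DDC library its level was 5.38 UMIs per 10000 (5.30 to 5.46) in EGFP-positive cells, 3.68 in Plet1-positive cells, 0.583 in other hepatocytes, 0.667 in Kupffer cells, 3.86 in other myeloid cells, 0.376 in endothelial cells and 1.71 in stellate cells. In the DDC and cMet library it was 3.73 (3.65 to 3.81) in Plet1-positive cells, 0.174 in hepatocytes, 0.730 in Kupffer cells, 1.61 in other myeloid cells, 0.154 in endothelial cells and 1.85 in stellate cells. EGFP-positive cells thus stood above every other class of their library. Among cells with at least 10000 UMIs they still led, but the lead was not clear. The Plet1-positive lead in the DDC and cMet library was likewise kept but not clear at 2000 UMIs per cell. The intervals of other myeloid and Plet1-positive cells overlapped in the DDC library, and those of stellate and other myeloid cells in the other. The other myeloid level rested on few cells: 7 of 69 held 93.8% of the class's Ccl2 UMIs in the DDC library, and 1 of 170 held 179 of 284 in the other, without which the level there was 0.600. The 69 cells also carried more EGFP (1.24 per 10000) and bile duct markers (49.1) than Kupffer cells (0.0183 and 3.08), and the part of that in their Ccl2 and Cxcl5 was not tested.

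Detection at equal depth separated the marked epithelium from other hepatocytes too. After every cell was thinned to 2000 UMIs, Ccl2 was seen in 33.7% of EGFP-positive, 24.6% of Plet1-positive, 14.4% of hepatocytes, 7.06% of Kupffer and 9.84% of endothelial cells of the DDC library, against 78.3%, 68.3%, 32.9%, 35.3% and 19.7% at full depth. Other myeloid cells stood at 14.5%, level with hepatocytes, and 1 of 4 stellate cells had it. Within the DDC and cMet library it was seen in 25.5% of Plet1-positive cells, 4.33% of hepatocytes and 2.50% of endothelial cells, against 55.6%, 9.78% and 8.87% at full depth. Stellate cells there stood at 25.0% (6 of 24), close to Plet1-positive cells. Thinning left out 624 of 1414 and 3780 of 8885 hepatocytes but 5 EGFP-positive and 14 and 5 Plet1-positive cells. Expression was uneven within the epithelium: the 67 EGFP-positive cells with most Ccl2 held 63.9% of their Ccl2 UMIs, and the highest cell held 636.

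The neutrophil attractants Cxcl1 and Cxcl2 are neighbours on chromosome 5 with the same 9-base match upstream, and they had different sources. Cxcl1 was at 3.77 per 10000 (3.70 to 3.83) in EGFP-positive cells, 2.72 in Plet1-positive cells and 1.86 in other hepatocytes of the DDC library, and at 0.828 in Kupffer, 1.47 in other myeloid, 0.306 in endothelial and 0.731 in stellate cells. No neighbours in that order had overlapping intervals, stellate cells aside, which had 6 UMIs. In the other library, DDC and cMet, it was spread more evenly, with 3.18 (2.62 to 3.82) in stellate cells, 3.05 in Plet1-positive cells, 2.52 in Kupffer cells, 2.28 in other myeloid cells, 1.73 in hepatocytes and 0.372 in endothelial cells. The first pair in that list overlapped, as did Kupffer and other myeloid cells, and 1 of the 25 stellate cells held 55 of their 115 UMIs.

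Cxcl2 was a myeloid transcript. Within the DDC library it was at 2.75 (2.61 to 2.89) in Kupffer cells and 1.85 in other myeloid cells, and between 0.0590 and 0.0919 in the 3 epithelial classes. In the DDC and cMet library it was at 13.0 (12.8 to 13.2) in Kupffer cells and 13.9 (13.4 to 14.5) in other myeloid cells, with 0.183 in Plet1-positive cells, 0.185 in hepatocytes, 0.391 in endothelial cells and 0.166 in stellate cells. At 2000 UMIs, 66.0% of Kupffer cells and 38.7% of other myeloid cells of that library had a Cxcl2 UMI, against 5.15% of hepatocytes (82.9%, 55.9% and 14.2% at full depth). The higher level thus lay in fewer of the other myeloid cells. Endothelial cells of the DDC library had 0 Cxcl2 UMIs, which allows up to 0.0867 per 10000.

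Free RNA in the droplets gives low counts of a gene in cells that do not make it, and marker genes give a rough guide to it. The same markers set the gates, so the gating itself kept them low outside their own class. The chemokines set beside them had no such limit. In the DDC library, summed pan-myeloid markers in EGFP-positive, Plet1-positive and hepatocyte cells stood at 0.810%, 0.942% and 0.981% of their Kupffer level, and Cxcl2 at 2.25%, 3.35% and 2.15%. In Plet1-positive cells and hepatocytes of the DDC and cMet library the markers stood at 1.001% and 1.34% and Cxcl2 at 1.41% and 1.43%. The part of free RNA in the low epithelial Cxcl2 was not tested. Ccl2 in EGFP-positive cells stood at 807% of the Kupffer level and Cxcl1 at 455%, above the Kupffer level itself. In the other direction, hepatocyte markers in Kupffer cells stood at 3.98% and 5.83% of their hepatocyte level, while Kupffer Cxcl1 stood at 44.6% and 146% of the hepatocyte level.

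Within the myeloid cells, Cxcl2 was seen more often in cells with Cxcl1 than in those without. At 2000 UMIs in the DDC and cMet library, 85.8% of Kupffer cells with Cxcl1 also had Cxcl2, against 58.2% of those without. Among other myeloid cells of that library the shares were 80.6% and 27.3%. In the DDC library they were 40.5% and 25.1% in Kupffer cells. They were 37.5% and 16.4% in its other myeloid cells, of which 8 had Cxcl1. In EGFP-positive cells 55.0% of those with Ccl2 had Cxcl1, against 31.2% of those without, and Kupffer cells of the DDC and cMet library leaned the same way (38.8% against 27.0%). These shares compare cells of 1 library and carry no test.

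Cxcl5, the other Cxcr2 ligand of the list, was rare, with 454 UMIs in the DDC library and 22 in the other. In the DDC library it was at 0.174 (0.0995 to 0.283) in other myeloid cells from 16 UMIs, 0.0738 in EGFP-positive cells and 0.0568 in Plet1-positive cells, with 4 UMIs in other hepatocytes, 1 in Kupffer cells and 0 in endothelial and stellate cells. The last 2 epithelial intervals overlapped. A single Plet1-positive cell held 75 of the 173 UMIs of its class, and without it the level was 0.0323. Within the DDC and cMet library 11 of the 22 UMIs lay in Plet1-positive cells (0.00458 per 10000) and 1 in 8885 hepatocytes.

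The Cxcr3 ligands Cxcl9 and Cxcl10 had their highest level in endothelial cells of the DDC and cMet library and no firm main source in the DDC library. In the DDC and cMet library endothelial cells held 12.1% and 4.44% of their UMIs, and epithelial cells 52.1% and 61.6%. Cxcl9 in that library was at 1.57 (1.42 to 1.72) in endothelial cells, 0.299 in Kupffer cells and 0.140 in Plet1-positive cells. It was at 0.125 in hepatocytes, 0.0397 in other myeloid cells and 0.0553 in stellate cells. Its endothelial UMIs were spread over cells, with at most 12 in a cell, while 1 Kupffer cell held 246 of 397, without which the Kupffer level was 0.114. At 2000 UMIs, Cxcl9 was seen in 26.1% of endothelial cells and in 1.63% of hepatocytes (47.9% and 5.22% at full depth). Within the DDC library all classes lay between 0.815 and 2.56: 0.815 in EGFP-positive, 1.21 in Plet1-positive, 0.916 in hepatocyte, 0.874 in Kupffer, 1.74 in other myeloid, 0.893 in endothelial and 2.56 in stellate cells. The stellate value came from 1 of 4 cells with 21 UMIs, and 1 of 69 other myeloid cells held 95 of 160.

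Cxcl10 was at 1.78 (1.63 to 1.95) in endothelial cells of the DDC and cMet library, 1.28 in Kupffer, 1.13 in other myeloid and 1.09 in Plet1-positive cells, 0.342 in hepatocytes and 0.0829 in stellate cells. The Kupffer, other myeloid and Plet1-positive levels overlapped from one to the next. In the DDC library it was at 1.34 (1.11 to 1.60) in other myeloid cells, but 1 cell held 103 of the 123 UMIs, and without it the level was 0.222. The rest stood at 0.682 in endothelial, 0.433 in Plet1-positive, 0.355 in EGFP-positive, 0.297 in hepatocyte, 0.222 in Kupffer and 0.609 in stellate cells, the latter from 5 UMIs. Cxcl9 and Cxcl10 thus shared a main source in 1 library. At 2000 UMIs, Cxcl10 was seen in 6 of 39 EGFP-positive cells with Cxcl9 (15.4%) against 3.23% of those without, but the shares were 6.58% and 5.46% in hepatocytes of the DDC library and 4.82% and 4.98% in those of the other.

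Ccl20, the ligand of Ccr6, came from very few cells. It had 612 UMIs in the DDC library, of which 402 lay in cells with mixed markers and 302 in 1 such cell. Its levels there were 0.0360 (0.0299 to 0.0430) in EGFP-positive cells, 0.0240 in Plet1-positive cells and 0.00886 in hepatocytes, the former pair overlapping, and 1 cell held 56 of the 122 EGFP-positive UMIs. In the DDC and cMet library it was at 0.150 (0.135 to 0.166) in Plet1-positive cells and 0.0132 in hepatocytes, a fold of 11.4, and 1 cell held 131 of the 359 Plet1-positive UMIs. Without it the level was 0.0952. When cells with mixed markers were assigned, the DDC main source became stellate cells, with 303 UMIs or 8.03 per 10000, nearly all from the 1 cell with 302. Kupffer cells had 0 and 5 UMIs and endothelial cells 0 in both libraries, which allows the latter up to 0.0867 and 0.0139.

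Cxcl12, which retains Cxcr4-bearing cells, was the stellate transcript of the list. Stellate cells had 14.4 per 10000 (11.9 to 17.2) in the DDC library, from 118 UMIs in 3 of 4 cells, and 23.4 (21.9 to 25.1) in the DDC and cMet library, from 848 UMIs in 22 of 25 cells. Hepatocytes, the next class, had 0.425 and 0.619, folds of 33.8 and 37.9. EGFP-positive cells had 0.297 and Plet1-positive cells 0.296 and 0.523, so the marked epithelium lay below the other hepatocytes in both libraries. Kupffer cells had 0.137 and 0.115, other myeloid cells 0.218 and 0.244, and endothelial cells 0.165 and 0.211, and of these the DDC levels and the second library's other myeloid and endothelial levels overlapped. At 2000 UMIs, 83.3% of the stellate cells of the second library had a Cxcl12 UMI, against 2.35% of Kupffer cells (88.0% and 12.5% at full depth). Cells with mixed markers held 29.8% and 31.4% of all Cxcl12 UMIs. When such cells were given to the class with most markers, the stellate classes grew to 18 and 69 cells with 10.3 and 17.1 per 10000, and stellate cells still led.

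The membrane-bound chemokines differed from each other. Cxcl16 was highest in myeloid and endothelial cells: in the DDC library it was at 2.94 (2.80 to 3.09) in Kupffer, 2.89 in other myeloid and 2.70 in endothelial cells, with overlapping neighbours, then 0.930 in EGFP-positive, 0.853 in stellate, 0.682 in Plet1-positive and 0.185 in hepatocyte cells. Within the DDC and cMet library it was at 3.89 (3.78 to 3.99) in Kupffer, 3.65 in other myeloid, 1.74 in endothelial, 1.49 in stellate, 0.572 in Plet1-positive and 0.0865 in hepatocyte cells. There the Kupffer and other myeloid intervals overlapped, and so did the endothelial and stellate ones. It was spread over many cells: the 27 and 99 Kupffer cells with most Cxcl16 held 26.6% and 26.5% of the class's UMIs.

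Cx3cl1 had 145 and 148 UMIs in all. Within the DDC library 63 lay in EGFP-positive cells (0.0186 per 10000, interval 0.0143 to 0.0238). Plet1-positive cells held 46 (0.0151, overlapping) and other hepatocytes 4. Kupffer cells had 7 (0.0128), other myeloid cells 3 (0.0326) and the 4 stellate cells 1 (0.122), all under the minimum of 10 for a source. The other myeloid and stellate levels were above the EGFP-positive one, with wide intervals that overlapped it. In the other library, DDC and cMet, the 25 stellate cells had 17 UMIs, or 0.470 (0.274 to 0.752), in 13 cells with at most 3 each, against 0.0217 in Plet1-positive and 0.00215 in hepatocyte cells. At 2000 UMIs 2 of 24 stellate cells showed it. Endothelial cells had 0 UMIs in both libraries, which allows up to 0.0867 and 0.0139 per 10000.

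Against the other hepatocytes of their library, EGFP- and Plet1-positive cells held more RNA of the monocyte attractant, Ccl20 and the membrane-bound chemokines, and less than 2-fold different amounts of Cxcl9 and Cxcl12. Cxcl10 was past 2-fold in the DDC and cMet library and not in the DDC library. The other hepatocytes can hold cells of WT day 0 mice, which carry no EGFP. In the EGFP contrast the marker therefore cannot be told apart from diet and genotype. A difference was called at 2-fold for genes with at least 20 UMIs over both classes. In EGFP-positive cells 6 of 10 chemokines were at least 2-fold higher, against 11.9% of 13238 genes, and 0 were 2-fold lower, against 4.57%. The log2 ratios were 4.97 for Cxcl5, 3.21 for Ccl2, 2.98 for Cx3cl1, 2.33 for Cxcl16, 2.02 for Ccl20 and 1.02 for Cxcl1. The last was under the line in 3 alternatives, with 0.74 at the lowest. The others were 0.26 for Cxcl10, 0.06 for Cxcl2, -0.17 for Cxcl9 and -0.52 for Cxcl12. The median over the 10 was 1.52, and over all genes 0.23.

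Plet1-positive cells without EGFP showed the same leaning in the same library: 5 of 10 were at least 2-fold higher, against 6.02% of 12987 genes, and 0 lower, against 3.36%. Cxcl5 stood at 4.59, Cx3cl1 at 2.68, Ccl2 at 2.66, Cxcl16 at 1.88 and Ccl20 at 1.44, with Cxcl1 at 0.55. These cells and the EGFP-positive ones were set against the same hepatocytes, so the likeness of the lists is in part shared. In the DDC and cMet library 5 of 9 were at least 2-fold higher in Plet1-positive cells, against 12.6% of 14307 genes, and 0 lower, against 4.38%. Ccl2 stood at 4.42, Ccl20 at 3.51, Cx3cl1 at 3.33, Cxcl16 at 2.73 and Cxcl10 at 1.67, with Cxcl1 at 0.82, Cxcl9 at 0.17, Cxcl2 at -0.01 and Cxcl12 at -0.24. Ccl2 was thus 9.23-fold, 6.30-fold and 21.4-fold higher in the 3 comparisons.

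The marked cells were deeper, so the ratios were also taken among cells with at least 10000 UMIs, a check chosen after seeing the data. Ccl2 then stood at 3.83, 3.29 and 4.79 and Cxcl16 at 2.70, 2.26 and 3.07, larger than over all cells. Weighting each cell equally, which gives shallow hepatocytes the same say as deep ones, made the ratios smaller. Ccl2 then stood at 1.68, 0.997 and 3.39 and Cxcl16 at 1.19, 0.56 and 1.77, so that both Plet1-positive values of the DDC library were under 2-fold. Cx3cl1 stood at 0.319, 0.0742 and 1.963, and Ccl20 had the opposite sign in the DDC library, -1.14 and -1.92. Chemokines 2-fold higher in EGFP-positive cells then numbered 3. At 2000 UMIs per cell they also numbered 3, with Ccl2 at 2.55, 1.81 and 3.66 and Cxcl16 at 1.78, 0.94 and 2.36. Without the highest cell of each class, Ccl20 stood at 0.74 in Plet1-positive cells of the DDC library. The immediate early genes, which respond to cell handling, were 2-fold higher for 2, 2 and 1 of 12 in the 3 comparisons, beside 11.9%, 6.02% and 12.6% of all genes. Their medians were 0.69, 0.29 and 0.46, against 0.23, 0.14 and 0.32 over all genes, and their part in the chemokine ratios was not tested. The 2 in Plet1-positive cells of the DDC library were Hspa1a (4.27, 973 against 28 UMIs) and Hspa1b (3910 against 230 UMIs).

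**Figure D3:**
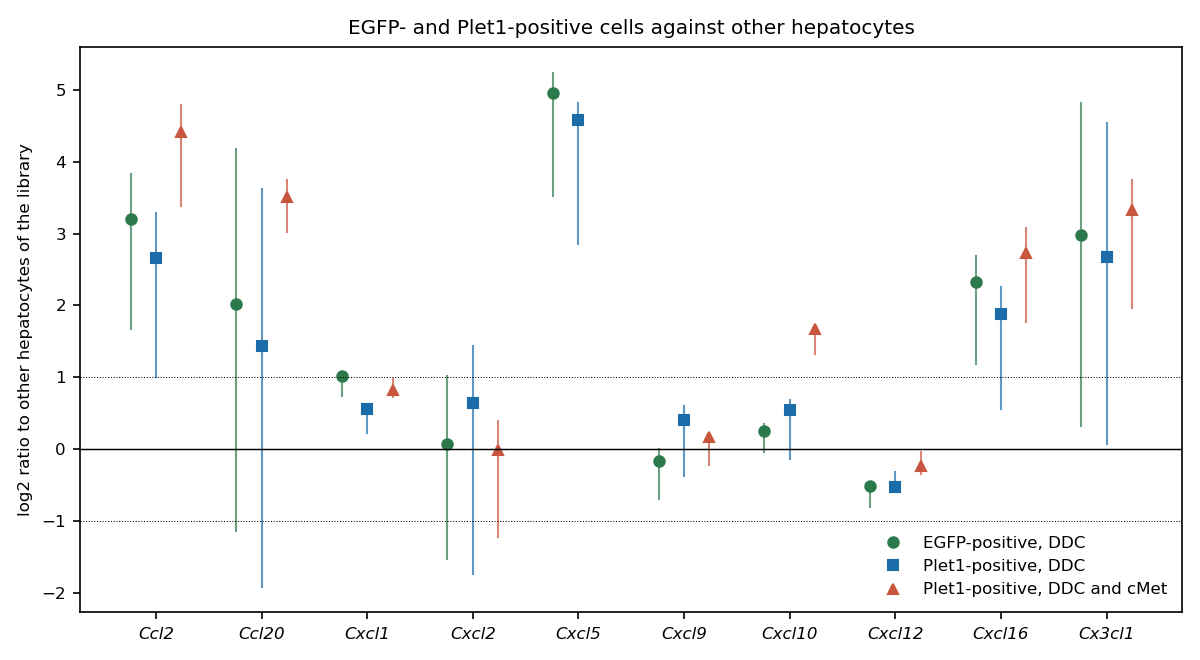
log2 ratio of each chemokine (y axis) in EGFP-positive (green) and Plet1-positive cells (blue, DDC; red, DDC and cMet) to the other hepatocytes of the library; points are the values over all cells, lines span the alternatives, and dotted lines mark 2-fold. Ccl2, Cxcl16 and Cx3cl1 points lie past the upper 2-fold line in all 3 comparisons, Cxcl12 points below 0, while the lines of DDC Ccl20 cross 0 and those of DDC Cx3cl1 come close to it.

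Levels followed the amount of the marker for some chemokines only. In epithelial cells of the DDC library grouped by Plet1, Ccl2 was at 0.727 per 10000 in cells with 0 Plet1 UMIs, 1.55 below 1 Plet1 UMI per 10000, 4.77 from 1 to 4 and 6.76 from 4 to 16. Within the DDC and cMet library the same steps were 0.153, 0.950, 3.78 and 8.27. Cxcl16 went from 0.191 to 1.12 and from 0.0818 to 1.16 over these steps, and Cxcl1 from 2.05 to 3.91 and from 1.67 to 4.26. Cxcl12 went the other way, from 0.439 to 0.231 and from 0.628 to 0.522. Cxcl9 was highest below 1 Plet1 UMI per 10000, at 1.65 and 0.205. The steps differ in depth, with medians of 2324, 40901, 28492 and 2356 UMIs in the second library, where a shallow cell enters the last step with 1 Plet1 UMI.

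By EGFP, Ccl2 was at 2.21 in cells with 0, 4.20, 4.86 and 8.43 in the next steps, and 6.62 in the 23 cells with at least 16 EGFP UMIs per 10000. Cxcl9 was at 0.0726 and Cxcl10 at 0.0272 in those 23 cells, against 0.742 and 0.340 from 4 to 16. Hepatocyte markers were lower along the same steps, from 1016 per 10000 to 449, and the median depth was 7435 UMIs at 0 EGFP and 43071 to 47988 above. Cells of the WT day 0 mice, which carry no EGFP, belong to the step at 0 EGFP. The part of depth, of day 0 cells and of bile duct cells in these steps was not tested.

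**Figure D4:**
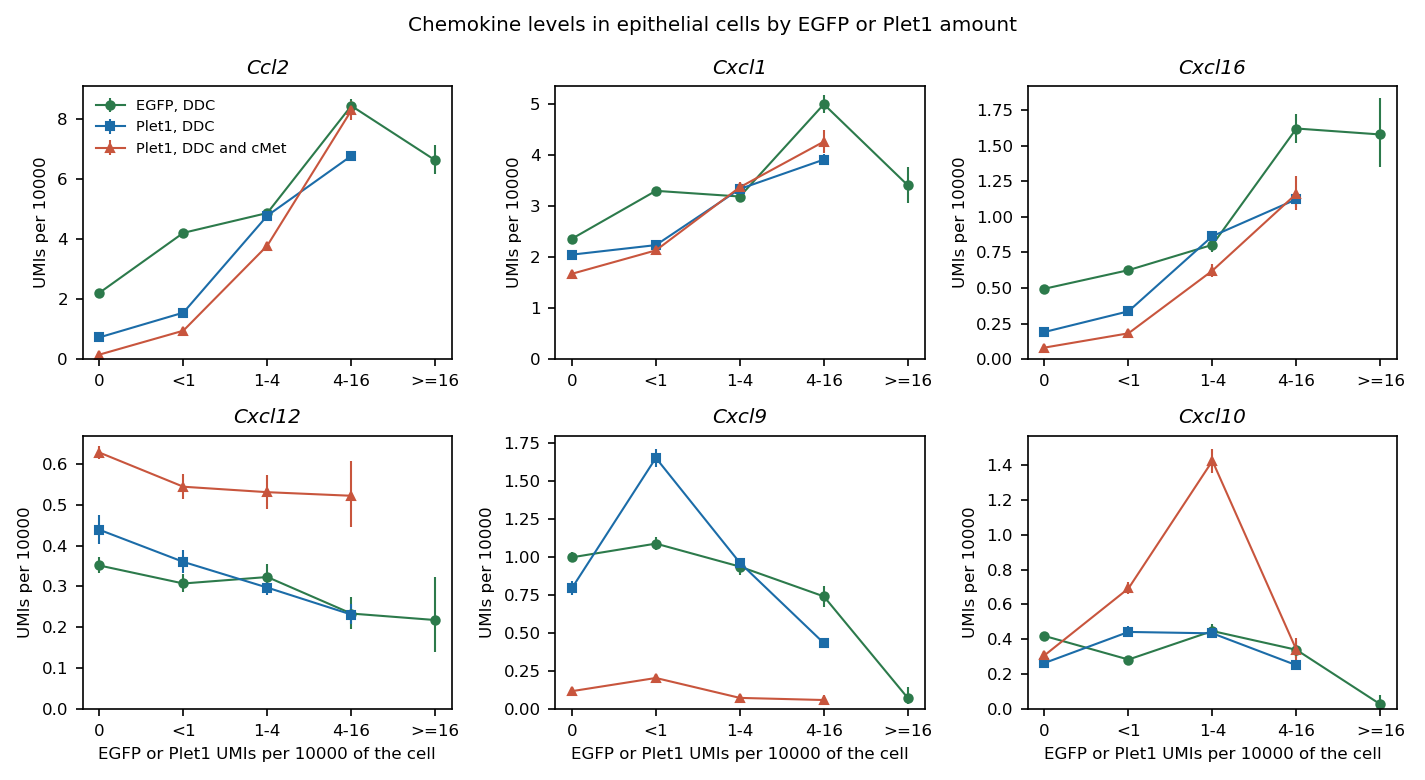
UMIs per 10000 of 6 chemokines (y axis, with 95% Poisson intervals) in epithelial cells grouped by their EGFP or Plet1 UMIs per 10000 (x axis), for EGFP (green) and Plet1 (blue) in the DDC library and Plet1 in the DDC and cMet library (red). Ccl2 goes from 0.153 to 8.27 along Plet1 in the red series, while Cxcl12 is lowest at the highest steps.

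Between the libraries the chemokines differed in both directions, with Cxcl9 mostly higher in the DDC library and Cxcl2 higher in the DDC and cMet library. In hepatocytes 3 of 9 were at least 2-fold higher in the DDC library, against 9.72% of 14133 genes: Cxcl9 (log2 ratio 2.87), Ccl2 (1.74) and Cxcl16 (1.09). Only 1 of the 9, Cxcl2, was 2-fold lower (-1.65), against 6.03%. With cells weighted equally 5 were higher. In Plet1-positive cells Cxcl5 (3.63) and Cxcl9 (3.11) were higher in the DDC library, 2 of 10 against 5.77% of 13339 genes, and Ccl20 (-2.64) and Cxcl10 (-1.33) lower, 2 of 10 against 6.96%. Ccl2 there was at -0.02 and Cxcl1 at -0.16, each within the 2-fold line. Cxcl10 was at -0.93 with each cell weighted equally.

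In Kupffer cells 3 of 7 were at least 2-fold lower in the DDC library, against 6.18% of 12160 genes: Cxcl10 (-2.53), Cxcl2 (-2.24) and Cxcl1 (-1.60). Cxcl9 was higher (1.55), 1 of 7 against 3.68%. In other myeloid cells Cxcl2 was lower (-2.91), 1 of 7 against 5.07% of 9075 genes, and Cxcl9 (5.45) and Ccl2 (1.26) were higher, 2 of 7 against 7.31%. Ccl2 was at 0.30 with each cell weighted equally and 0.42 at 2000 UMIs. The Cxcl9 contrast rested on 160 against 7 UMIs and vanished, at -0.0109, when cells with mixed markers were assigned. Without the highest cell of each class, 5 of the 7 were 2-fold apart in these cells, Cxcl1 (-1.43) and Cxcl10 (-2.08) being added.

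In endothelial cells Cxcl10 (-1.39) and Cxcl2 were lower in the DDC library, 2 of 7 against 7.86% of 9858 genes; Cxcl2 had 0 against 104 UMIs, at least 5.55-fold lower, though the bound was under 2-fold (-0.68) both at 2000 UMIs and among cells with at least 10000. Ccl2 was higher (1.29, 16 against 41 UMIs), 1 of 7 against 3.63%. It was at 0.64 with mixed cells assigned, and Cxcl10 at -0.94 with cells weighted equally and -0.70 at 2000 UMIs, all under 2-fold. In stellate cells 1 of 5 was lower, Cxcl1 (-2.12, 6 against 115 UMIs), against 15.5% of 3789 genes, and 1 higher, Cxcl9 with 21 against 2 UMIs, against 7.60%. With 4 cells in 1 library, the stellate count was 0 after thinning, 1 with at least 100 UMIs and 6 with mixed cells assigned.

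**Figure D5:**
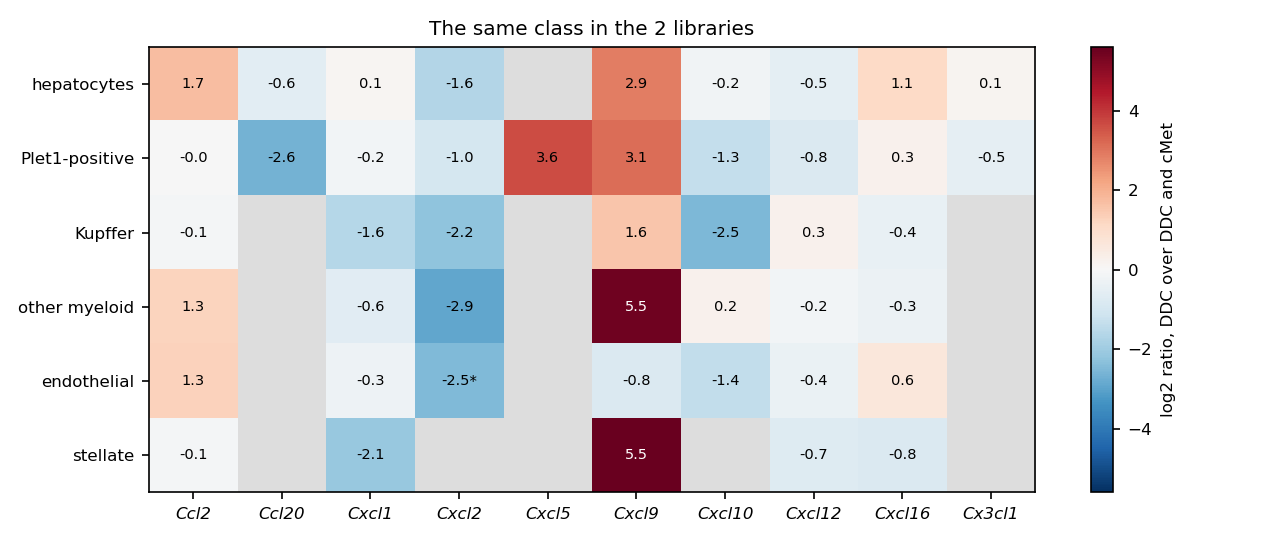
log2 ratio of each chemokine (columns) between the DDC library and the DDC and cMet library in each class (rows); red is higher in the DDC library, blue higher in the DDC and cMet library, grey has under 20 UMIs over both, and the star marks a bound. Cxcl9 is red in all rows but endothelial cells and Cxcl2 is blue in all measured rows.

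Handling and inflammation genes also differed between the libraries, and the handling genes did so in every class compared. In Kupffer cells, 10 of 12 immediate early genes (median -1.47; Atf3 -2.83, Hspa1b -2.33) and 8 of 11 NF-kappaB feedback and cytokine genes (median -1.48; Tnf -4.75, Nfkbiz -2.78) were 2-fold lower in the DDC library, as were 5 of 9 interferon genes (median -1.03; Isg15 -2.76). In endothelial cells all 12 immediate early genes (median -1.77) and 6 of 10 NF-kappaB genes were. Immediate early genes were also lower for 5 of 12 each in hepatocytes, Plet1-positive and other myeloid cells (medians -0.84, -0.90 and -0.95). In stellate cells 9 of 12 were lower (median -2.11), and in each class 0 were 2-fold higher. Shares of all genes 2-fold lower in these 4 classes were 6.03%, 6.96%, 5.07% and 15.5%. Over all genes in Kupffer and endothelial cells the shares 2-fold lower were 6.18% and 7.86% and the medians 0.06 and 0.03. In Kupffer cells these lists shared their direction with Cxcl1, Cxcl2 and Cxcl10 and not with Cxcl9, and their part in the chemokine differences was not tested.

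Among 23 other chemokines, 12 had enough UMIs in EGFP-positive and other hepatocytes, and 2 were 2-fold higher: Ccl7 (3.68), a monocyte attractant next in kind to Ccl2, and Cxcl13 (1.94), the B cell attractant. These 2 of 12 stand beside 11.9% of all genes. Ccl24 was 2-fold lower (-1.93, 11 against 21 UMIs), 1 of 12 beside 4.57%. In the Plet1-positive comparisons Ccl7 stood at 3.07 and 4.71 and Ccl5 at 1.34 and 2.75, 2 of 12 each beside 6.02% and 12.6%, and Ccl22 was lower in the DDC and cMet library with 1 against 69 UMIs. In Kupffer cells Ccl4 (-3.42) and Ccl3 (-2.95) were lower in the DDC library, and Ccl8 (3.91) and Cxcl13 (2.79) were among the 4 of 16 that were higher, beside 3.68% of all genes. In other myeloid cells Ccl4 (-3.09) and Ccl3 (-1.56) were lower and Ccl5 (2.95) and Ccl7 (1.43) higher, 2 of 9 in each direction, beside 5.07% and 7.31%. Cxcl13 had 305 UMIs in the 4 DDC stellate cells (37.2 per 10000) and 4 in the 25 of the other library (0.111).

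Of the receptors named here, those with at least 10 UMIs in a class were highest in other myeloid or endothelial cells. Ccr2, the receptor of Ccl2, was highest in other myeloid cells (2.96 and 2.38 per 10000), as were Cx3cr1 (3.07 and 2.89), Cxcr4 (0.816 and 1.95) and Ccr1 (0.631 and 0.533). The atypical receptors Ackr1 (1.65 and 1.38) and Ackr2 (0.376 and 0.410), which take up chemokines without signalling as the others do, were highest in endothelial cells. The neutrophil receptor Cxcr2 had at most 8 UMIs in any of the classes compared and Cxcr6, the receptor of Cxcl16, at most 8, in libraries with 3 and 9 gated neutrophils and 19 and 15 T or NK cells. Ccr6 reached 10 UMIs only in other myeloid cells of the DDC and cMet library (12 UMIs).

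The sheddases that free Cxcl16 and Cx3cl1 differed little between the marked epithelial cells and the other hepatocytes. Of 4 protease genes, 3 had enough UMIs in each epithelial comparison, and 0 was 2-fold apart: Adam10 stood at 0.46, 0.36 and 0.70 and Adam17 at -0.05, 0.22 and 0.41. Of the NF-kappaB list, genes were higher in the marked cells for 4 of 10, 3 of 10 and 5 of 11 at 2-fold, beside 11.9%, 6.02% and 12.6% of all genes (medians 0.84, 0.82 and 0.85) with 1 lower in the last, among them Relb (1.87, 1.42 and 2.93) and Vcam1 (1.90, 1.46 and 1.97). Interferon genes were 2-fold higher for 2 of 9, 0 of 9 and 0 of 9, beside the same shares of all genes, the 2 being Ifit3 (2.28) and Ifit1 (1.25) in EGFP-positive cells.

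The genes most like each chemokine were taken by Pearson's r of log2(UMIs per 10000 + 0.01) over the 12 classes with at least 20 cells, among 13606 genes, as a description with no test. Cxcl2 was most like Il1b (r = 0.979), Dusp2 (0.969) and Ccl3 (0.964). Cxcl16 was most like Chd4 (0.976), Ccl2 most like Atxn10 (0.920) and Cx3cl1 most like Adamts14 (0.987). Among the 10 themselves the closest pairs were Cxcl12 with Cx3cl1 (0.850), Ccl2 with Cxcl5 (0.775) and Ccl2 with Cxcl1 (0.688), and Cxcl10 with Cxcl12 was the farthest apart (-0.668). The classes share libraries and depth, so these values are not independent evidence.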

How the data were processed

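The authors deposited raw UMI counts from 2 pooled 10x 3' libraries of mouse liver, without normalization, and lists of gene and barcode names. Per the file headers Cell Ranger 5.0.1 made the matrices; version 6.0.1, Seurat 4.0.1 and mm10 appear in the submitters' processing notes, and the conflict is unresolved.

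Cells were kept at 500 genes, 1000 UMIs and 30% mitochondrial UMIs. A non-parenchymal class needed several of its markers (Kupffer 3 of 7 beside 4 of 8 pan-myeloid, endothelial 5 of 11, stellate 4 of 10) and under 200 hepatocyte-marker UMIs per 10000. Other cells were EGFP-positive or else Plet1-positive from 2 UMIs, and otherwise hepatocytes from 400 hepatocyte-marker UMIs per 10000. Cells with markers of several families were left out. No doublet caller was run. UMIs were summed per class and scaled to 10000; a side with 0 UMIs was set at 3. Shares used cells thinned to 2000 UMIs and Clopper-Pearson intervals. Sums and ratios were tested on simulated data. Chemokines, markers and gene lists were chosen with earlier results of these data known, and gates from marker counts alone. All 10 chemokines are named, and from other lists up to 4 genes with the largest ratios and, for receptors, their highest class. Alternatives changed the filter, gates, marker minimum, weighting, depth, scaling and UMI minimums. Computation used pandas 2.3.3, numpy 2.4.6 and scipy 1.17.1 under Python 3.11.15, and matplotlib 3.10.9 drew the figures.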

Additional observations from a re-analysis of the deposited data

Results flagged for a closer look

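Cxcl2 was singled out because its ratio between Plet1-positive cells and the other hepatocytes had opposite signs in the libraries: log2 0.64 in the DDC library (280 against 100 UMIs) and -0.0136 in the DDC and cMet library (439 against 2145 UMIs). In the DDC and cMet library the intervals of the levels overlapped (0.166 to 0.201 and 0.177 to 0.193), so the second ratio shows no difference. Over the alternatives the ratio ran from -1.75 to 1.43 in the DDC library and from -1.22 to 0.39 in the other. The sign was therefore firm in neither library, and the difference was not tested. In each library all these epithelial levels lay at 1.41% to 3.35% of the Kupffer level, and 1 Plet1-positive cell held 69 of the 280 UMIs and another 115 of the 439.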

How the results depend on the processing

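Of 74 chemokine ratios, 36 were past 2-fold; 33 of them kept their sign in every alternative run and 23 their side of 2-fold as well. Of 707 recomputed ratios, 544 stayed within the counting interval. With each cell weighted equally, Ccl20 reversed in EGFP-positive (-1.14) and Plet1-positive cells (-1.92) of the DDC library, the chemokines 2-fold higher in EGFP-positive cells numbered 3 and those higher in DDC hepatocytes 5. With mixed cells assigned, Cxcl9 reversed in other myeloid cells (-0.0109) and 6 chemokines were 2-fold apart in stellate cells. Thinning to 2000 UMIs gave 3 chemokines with a clear source in the DDC and cMet library, 3 higher in EGFP-positive cells and 0 apart in stellate cells; a minimum of 100 UMIs gave 1 there. The stricter cell filter left 1 chemokine with the same source in both libraries. Leaving out each class's highest cell, chosen after seeing the data, gave 5 apart in other myeloid cells. Thinning leaves fewer UMIs; the other causes were not tested. No paired analysis was possible because each condition has 1 library. Depth limits Cxcl5, Ccl20 and Cx3cl1 most, and the stellate class of 4 cells.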
